A study of Saccharomyces cerevisiae with 6 samples.

Results

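The 9 genes described here encode the lysine biosynthesis pathway of the budding yeast Saccharomyces cerevisiae and its dedicated activator, out of 5449 S. cerevisiae genes measured. They were chosen by name (LYS20, LYS21, LYS4, LYS12, LYS2, LYS5, LYS9, LYS1 and LYS14), with the probe set of the highest mean level to be taken where a gene had several. Each of the 9 genes had 1 probe set, so the level decided nothing between probe sets. The list of genes itself was chosen with earlier results of these data known. Total RNA was hybridised to Affymetrix expression arrays, 1 array per sample. The first group was 3 samples of strain NGY051, in which PMR1 is replaced by a kan marker (pmr1Δ::kann), and the second was 3 samples of its wild type. The background is given as BY4147 in some labels and BY4741 in others, is MAT a, and is listed with ura3Δ0, leu2Δ0, his3Δ0 and met15Δ0, which the labels write out for the wild type. Both groups grew to mid-log phase in rich medium, named YPAD or YPD, with 5 mM CaCl2 added, so the comparison covers loss of PMR1 under added calcium and holds no arm without it. The deletion is represented by 1 strain, and no label says whether the replicates were separate cultures, so each p-value reflects the spread among these arrays alone, part or all of which may be technical.

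PMR1 encodes the Golgi pump that loads calcium and manganese into the secretory pathway. Fungi make lysine by the aminoadipate pathway, which starts from 2-oxoglutarate and acetyl-CoA, runs through homocitrate and 2-oxoadipate in its first part, and passes from 2-aminoadipate through saccharopine to lysine in its second. The pathway is controlled by lysine, which inhibits homocitrate synthase, and by transcription through Lys14, an activator that needs the intermediate 2-aminoadipate semialdehyde as its inducer, and through Gcn4, the general activator of amino acid synthesis. Rich medium supplies lysine from outside.

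The levels below are RMA values on the log2 scale, and a change is the deletion mean minus the wild-type mean. Levels of different genes come from different probes and are not compared. PMR1 itself had levels of 2.79, 3.45 and 3.16 in the deletion arrays, at array background, against 11.81, 11.79 and 11.84 in the wild-type arrays, which checks the labels. Array medians over the S. cerevisiae probe sets lay between 10.34 and 10.39, and 2 arrays of the same group correlated at 0.997 to 0.999 (Pearson's r over probe sets, not independent of each other), against 0.988 to 0.990 for arrays of different groups. The strain labels were checked on the same arrays. Of the deleted markers, URA3 and MET17 were at array background in both groups (3.05 and 3.44 in the deletion, 3.38 and 3.48 in the wild type), and LEU2 read 5.32 in the deletion and 5.55 in the wild type. The changes of URA3 and LEU2 were -0.33 and -0.23 (limma adjusted p = 0.0254 and 0.0349), although both genes are listed as deleted. HIS3 read 11.57 in the deletion and 11.55 in the wild type, which goes against the listed his3Δ0, and whether its probes fall outside the deleted stretch was not tested. The a-cell genes MFA1, MFA2 and STE2 had high levels in both groups and fell by 0.66, 0.64 and 0.46 (limma adjusted p at most 0.000966). Of the alpha-cell genes, MF(ALPHA)1 was within background at 3.65 in the deletion and 3.60 in the wild type. STE3, the a-factor receptor of alpha cells, was above it at 7.96 in the deletion and 7.40 in the wild type, and rose by 0.55 (adjusted p = 0.000888). MF(ALPHA)2 was at 6.35 in the deletion and 6.23 in the wild type (adjusted p = 0.0408), a call that ended without any of the 3 deletion arrays or without wild-type replicates 1 or 3. The part of these differences in the lysine results was not tested. All 9 lysine genes were above background on all 6 arrays, where background is the level that 95% of the S. pombe probe sets of that array stay below, 4.18 to 4.31. That includes LYS2, a gene deleted as a marker in some strains of this background but not in the genotype listed here.

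Of the 9 genes, 4 rose in the deletion and 0 fell, by limma with Benjamini-Hochberg adjustment over 5498 probe sets and a threshold of 0.05. LYS9 had the largest change, 0.48 on the log2 scale or 1.40-fold, followed by LYS21 at 0.28, LYS1 at 0.18 and LYS4 at 0.17. LYS12 and LYS2 had positive changes that missed the threshold, and LYS20, LYS5 and LYS14 had negative changes that missed it. The share that rose was 44.4%, beside 17.5% of all probe sets tested, and the share that fell was 0%, beside 11.7%. In either direction together, 29.2% of all probe sets passed. Without adjustment, 2 of the 9 were lower and 5 higher with limma p under 0.05, beside 959 and 1344 of the 5498 probe sets. The median change of the 9 was 0.10, beside 0.01 over all probe sets tested. The 3 values of one group did not overlap the 3 of the other for 8 of the 9 genes, beside 46.7% of all probe sets. Among the 8, the deletion was higher for 5 and lower for 3, beside 27.4% and 19.3% of all probe sets. In each of these 8 cases the two-sided exact permutation p over the samples was 0.1, the smallest that 3 arrays against 3 allow, and for LYS2 it was 0.7. The 9 genes were chosen with earlier results of these data known, so the shares and medians here are description, not independent support.

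**Figure D1:**
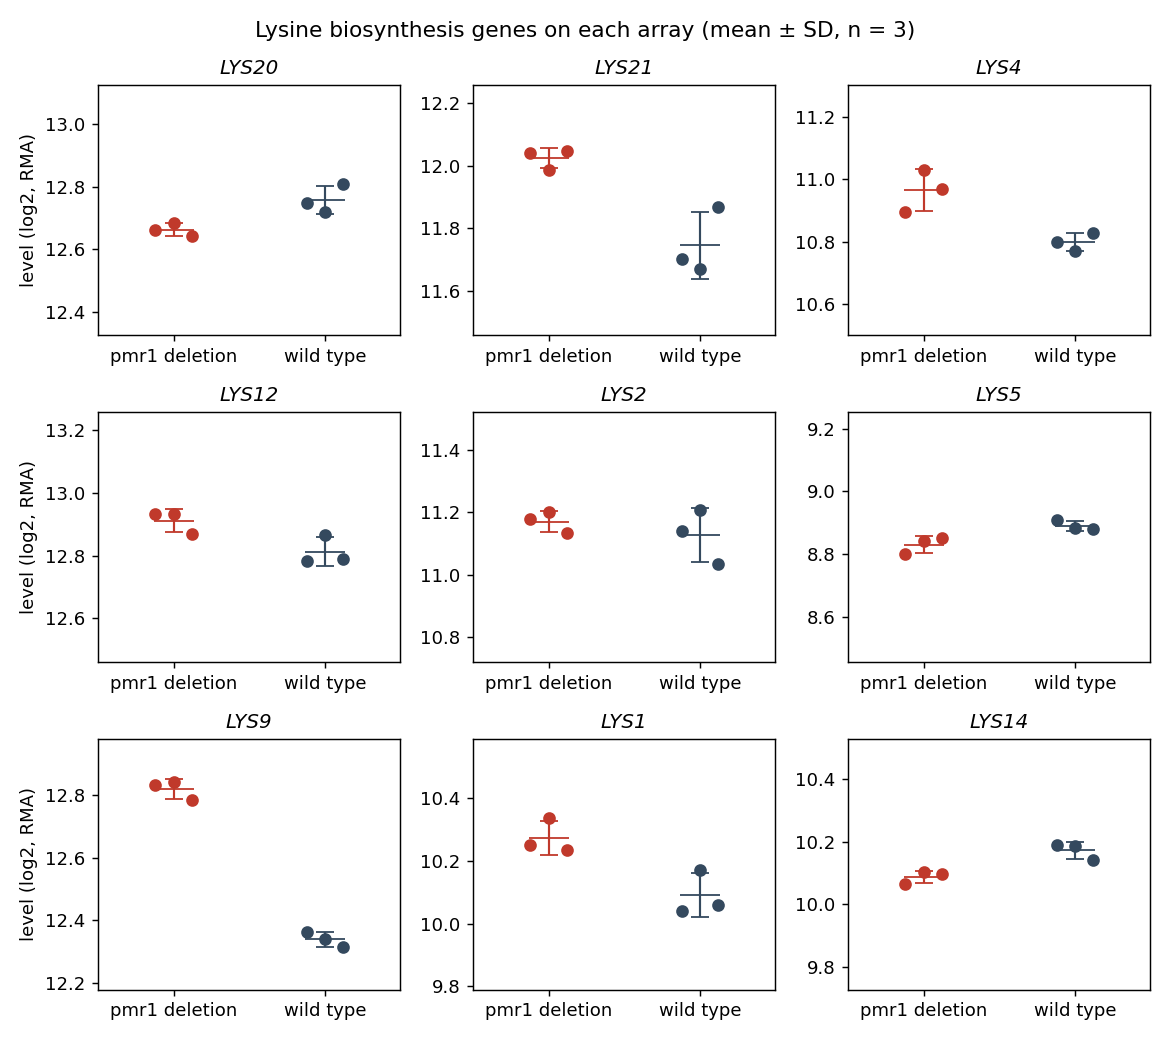
Level of each lysine gene on each array (y axis, log2 RMA value, the same span of 0.8 in every panel), with the 3 pmr1 deletion arrays in red on the left and the 3 wild-type arrays in dark blue on the right. Points are arrays, and the bars give the mean ± SD (n = 3). LYS9 has the widest gap between its groups, and LYS2 alone has groups that overlap.

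The first step of the pathway is made by a pair of homocitrate synthases, Lys20 and Lys21, and their genes had changes of opposite sign. LYS21 (YDL131W) had levels of 12.04, 11.99 and 12.05 in the deletion arrays, against 11.70, 11.67 and 11.87 in the wild-type arrays. All deletion values lay above all wild-type values, with a gap of 0.12 to wild-type replicate 3, the highest wild-type array for this gene. The means were 12.02 ± 0.032 in the deletion and 11.75 ± 0.11 in the wild type (SD, n = 3 each). LYS21 rose by 0.28 (SE 0.0574, limma adjusted p = 0.0124). LYS20 (YDL182W) had levels of 12.66, 12.69 and 12.64 in the deletion arrays, against 12.75, 12.72 and 12.81 in the wild-type arrays. Here the deletion arrays were the 3 lowest, by a gap of 0.03. The change of LYS20 was -0.10 (SE 0.0371), which did not pass the threshold (limma adjusted p = 0.0963).

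The difference between these changes was tested directly. Within an array, the LYS21 value minus the LYS20 value was -0.62, -0.70 and -0.60 in the deletion arrays, against -1.05, -1.05 and -0.94 in the wild-type arrays. The size of that difference on 1 array carries no meaning, since the probes differ. A constant offset between the probe sets cancels in its shift between groups. Unequal compression of folds by the probe sets would not cancel, and was not tested. The shift was 0.37 towards LYS21 in the deletion, with no overlap between groups (two-sided exact permutation p = 0.1, the smallest possible), and it lay between 0.35 and 0.41 when each array was left out in turn. Both probe sets are of the kind designed to bind a single transcript, and cross-binding between the paralogs was not tested.

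Homocitrate is turned into 2-oxoadipate in mitochondria by homoaconitase, encoded by LYS4, and homoisocitrate dehydrogenase, encoded by LYS12. LYS4 (YDR234W) had levels of 10.90, 11.03 and 10.97 in the deletion arrays, against 10.80, 10.77 and 10.83 in the wild-type arrays. Its groups did not overlap, and deletion replicate 1 was the nearest to the wild type. Mean levels were 10.96 ± 0.067 in the deletion and 10.80 ± 0.028 in the wild type (SD, n = 3 each). LYS4 rose by 0.17 (SE 0.0437, limma adjusted p = 0.0301), a call that ended without any of 5 of the 6 arrays (adjusted p of 0.0580 to 0.0825) and stood only when deletion replicate 1 was the one left out. LYS12 (YIL094C) had levels of 12.93, 12.93 and 12.87 in the deletion arrays, against 12.78, 12.87 and 12.79 in the wild-type arrays. The groups were separate by 0.001 only, between deletion replicate 3 and wild-type replicate 2. The change of LYS12 was 0.10 (SE 0.0399, limma adjusted p = 0.107), with a 95% interval of 0.0042 to 0.19.

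The second part of the pathway begins with 2-aminoadipate reductase, encoded by LYS2, which works only after the phosphopantetheinyl transferase encoded by LYS5 has attached its prosthetic group. LYS2 (YBR115C) had levels of 11.18, 11.20 and 11.13 in the deletion arrays, against 11.14, 11.21 and 11.03 in the wild-type arrays. The deletion values lay within the wild-type range, and the change was 0.04 (SE 0.0505, limma adjusted p = 0.554), with a 95% interval of -0.08 to 0.16. LYS5 (YGL154C) had levels of 8.80, 8.84 and 8.85 in the deletion arrays, against 8.91, 8.88 and 8.88 in the wild-type arrays. Its groups lay apart by 0.03, with the deletion lower, and the change of -0.06 (SE 0.033) did not pass the threshold (limma adjusted p = 0.219). The 95% interval of LYS5 was -0.14 to 0.02. The largest size that either interval of this step reached was 0.163, at the upper end for LYS2. These intervals are per gene and are not adjusted for the number of probe sets.

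The last steps, by way of saccharopine, held the largest change of the pathway. LYS9 encodes saccharopine reductase, which joins 2-aminoadipate semialdehyde, the inducer of Lys14, to glutamate. LYS9 (YNR050C) had levels of 12.83, 12.84 and 12.78 in the deletion arrays, against 12.36, 12.34 and 12.31 in the wild-type arrays. The gap between the groups was 0.42, while the values spanned 0.06 within the deletion and 0.05 within the wild type. The means were 12.82 ± 0.032 in the deletion and 12.34 ± 0.025 in the wild type (SD, n = 3 each). LYS9 rose by 0.48 (SE 0.0348, limma adjusted p = 0.000185), with a 95% interval of 0.40 to 0.56. It stood at rank 77 of 5498 by p-value and at the 97.0th percentile of signed change, which is rank 165 from the top.

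LYS1 encodes saccharopine dehydrogenase, which releases lysine in the final reaction. LYS1 (YIR034C) had levels of 10.25, 10.34 and 10.23 in the deletion arrays, against 10.04, 10.17 and 10.06 in the wild-type arrays. The groups did not overlap, and wild-type replicate 2 came within 0.06 of the deletion. Mean levels were 10.27 ± 0.055 in the deletion and 10.09 ± 0.071 in the wild type (SD, n = 3 each). LYS1 rose by 0.18 (SE 0.0493, limma adjusted p = 0.0318), and the call ended without any of the 3 deletion arrays or without wild-type replicates 1 or 3 (adjusted p of 0.0559 to 0.101). The 95% interval of LYS9 lay above those of LYS1 and of 6 other members, and overlapped that of LYS21, which ran from 0.14 to 0.41.

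The transcript of the activator did not rise with these enzymes. LYS14 (YDR034C) had levels of 10.07, 10.10 and 10.10 in the deletion arrays, against 10.19, 10.19 and 10.14 in the wild-type arrays. The deletion arrays were the 3 lowest, by a gap of 0.04, and the change of -0.08 (SE 0.0333) missed the threshold (limma adjusted p = 0.102). GCN4, whose product is controlled largely through translation, had a change of -0.02 (adjusted p = 0.624). Transcript arrays do not report the activity of either factor.

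**Figure D2:**
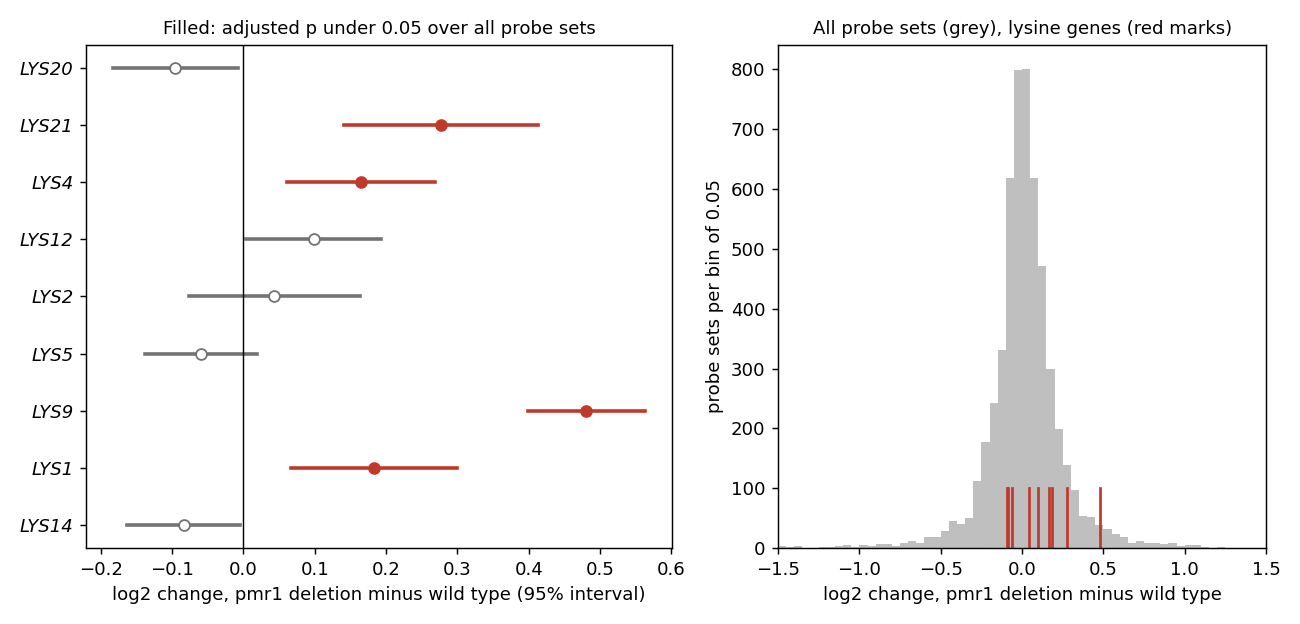
Left, log2 change (pmr1 deletion minus wild type) of each lysine gene with its 95% interval, filled red where the limma adjusted p was under 0.05. Right, the changes of all 5498 probe sets as a histogram (grey, x axis clipped at 1.5 either way), with the 9 lysine genes as red marks. LYS9 sits at 0.48 in the upper tail, and the other 8 genes lie between -0.10 and 0.28.

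By position in the pathway, 2 of the 4 genes that lead to 2-oxoadipate rose and 2 of the 4 from 2-aminoadipate to lysine rose, and in each part 0 fell. In each part that was 50% higher and 0% lower, beside 17.5% and 11.7% of all probe sets tested. The medians were 0.13 for the first part and 0.11 for the second. On each of the 3 deletion arrays 6 of the 9 genes were above their own wild-type mean, the same 6 that had positive changes, and the median deviation was 0.10, 0.12 and 0.06. Deletion replicate 2 was the highest of its group for 6 of the 9 genes and deletion replicate 3 the lowest for 5. Wild-type replicates 1, 2 and 3 were each the highest of their group for 3 genes.

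Of 3 measured genes that share steps with the pathway or carry its intermediates, all 3 rose (100%, beside 17.5% of all probe sets tested). ODC1 and ODC2 encode mitochondrial carriers that exchange 2-oxoadipate and 2-oxoglutarate with the cytosol, and ARO8 encodes an aromatic aminotransferase that also converts 2-oxoadipate to 2-aminoadipate. ODC1 had levels of 9.80, 9.76 and 9.77 in the deletion arrays, against 9.25, 9.27 and 9.20 in the wild-type arrays. It rose by 0.53 (SE 0.0351, limma adjusted p = 0.000149). ODC2 rose by 0.22 (adjusted p = 0.0185) and ARO8 by 0.17 (adjusted p = 0.00808), and the call of ODC2 ended without deletion replicates 1 or 3.

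Of 6 regulators of the pathway, 2 rose and 0 fell (33.3% and 0%, beside 17.5% and 11.7% of all probe sets). None of the others had an unadjusted p under 0.05. RTG2, a sensor of the retrograde pathway from mitochondria, rose by 0.20 (adjusted p = 0.0154). MKS1, also known as LYS80 and a repressor of that pathway, rose by 0.14 (adjusted p = 0.0342), a call that ended without any of 5 of the 6 arrays. Of 9 transport genes, 2 rose and 2 fell (22.2% each way, beside 17.5% and 11.7% of all probe sets). LYP1, the lysine permease of the plasma membrane, had a change of -0.03 (adjusted p = 0.593), and the arginine permease CAN1 rose by 0.19 (adjusted p = 0.0253), a call that ended without deletion replicates 2 or 3 or wild-type replicate 3. VBA1, a vacuolar carrier of basic amino acids, rose by 0.20 (adjusted p = 0.0218), a call that ended without deletion replicates 1 or 2 or wild-type replicates 1 or 3. RTC2, of the family of vacuolar exporters of basic amino acids, fell by 0.47 (adjusted p = 0.0148), and its call ended without deletion replicate 1. VBA3 fell by 0.84 (adjusted p = 0.00604), at levels near background. It read 5.00, 4.70 and 4.70 in the deletion arrays, against 5.46, 5.96 and 5.51 in the wild-type arrays. Its probe set may also pick up near-identical transcripts. Both lysyl-tRNA synthetase genes, KRS1 and MSK1, missed the threshold by limma. MSK1 was lower at an unadjusted limma p under 0.05, as were 959 of all 5498 probe sets.

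The genes that supply and use 2-oxoglutarate, the pathway's first substrate, went both ways, with 6 of 17 higher and 7 lower. The shares were 35.3% and 41.2%, beside 17.5% and 11.7% of all probe sets tested. IDH1, a subunit of the NAD-dependent isocitrate dehydrogenase that makes 2-oxoglutarate, fell by 0.32 (adjusted p = 0.0207), a call that ended without deletion replicates 1 or 3. CIT3, a mitochondrial citrate synthase gene, rose by 0.38 (adjusted p = 0.00839) and GDH1, which makes glutamate from 2-oxoglutarate and ammonium, by 0.35 (adjusted p = 0.000463). GDH2, which runs the reverse reaction, rose by 0.31 (adjusted p = 0.0289), a call that ended without deletion replicates 1 or 2 or wild-type replicates 1 or 3.

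Other pathways of amino acid synthesis are given for comparison. Of 7 measured arginine synthesis genes 5 fell and 0 rose, with a median change of -0.22 beside 0.10 for lysine. The shares were 71.4% lower and 0% higher, beside 11.7% and 17.5% of all probe sets tested. ARG7 was higher at an unadjusted limma p under 0.05, as were 1344 of all 5498 probe sets. ARG1 had levels of 9.74, 9.81 and 9.76 in the deletion arrays, against 11.35, 11.68 and 11.17 in the wild-type arrays, and fell by 1.63 (adjusted p = 0.000185). ARG3 fell by 1.62, ARG4 by 0.27 and ARG8 by 0.22 (adjusted p at most 0.00599). Of 25 measured genes for histidine, branched-chain and aromatic amino acids, 2 rose and 5 fell, with a median of 0.02. That was 8% higher and 20% lower, beside the same 17.5% and 11.7%. TRP5 rose by 0.27 and HIS4 fell by 0.22, while LEU9 and HIS6 fell by 0.18 and 0.17 with calls that each ended without 4 of the 6 arrays (deletion replicates 1 or 3, wild-type replicates 1 or 3). The difference between the lysine list and these lists was not tested.

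**Figure D3:**
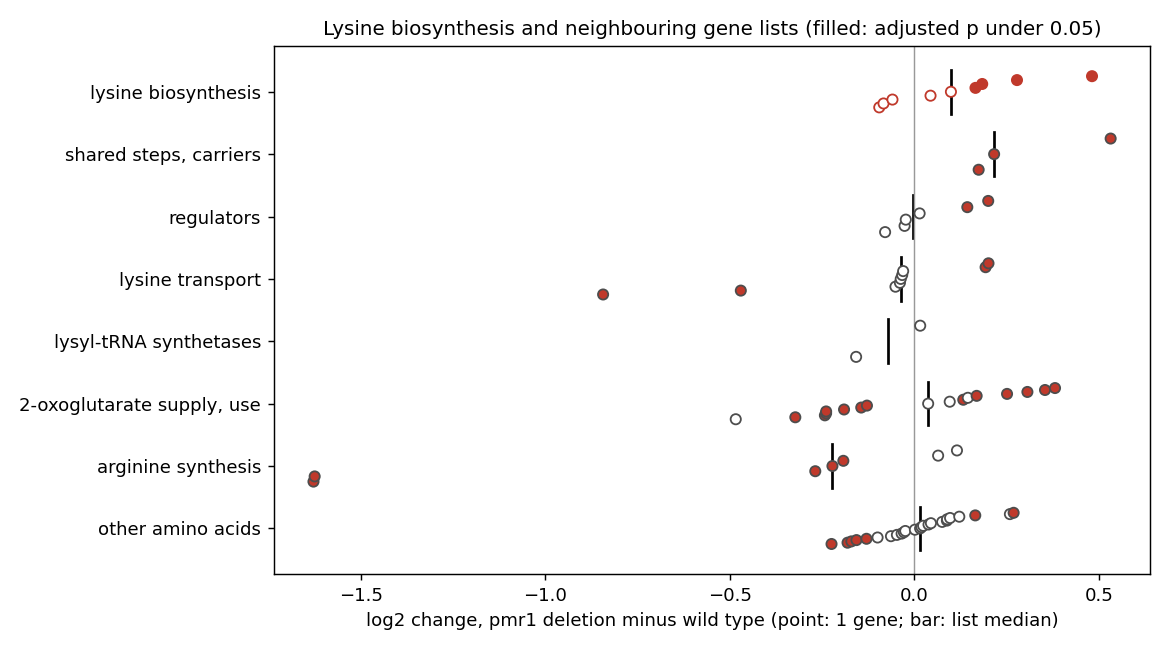
Log2 change (pmr1 deletion minus wild type) of each gene of the lysine pathway and of 7 other lists, 1 point per gene, filled where the limma adjusted p was under 0.05, with the list median as a bar. The lysine genes run from -0.10 to 0.48 and the 3 genes of shared steps and carriers from 0.17 to 0.53, while ARG1 and ARG3 stand at -1.63 and -1.62.

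Over the 6 arrays, the profile of LYS9 was nearest to those of YER034W, PRR1, GSC2, CMP2 and URH1, measured as the root mean square distance between deviations from each gene's own wild-type mean. The distances were 0.024 to 0.035, and the changes of these 5 genes were 0.45 to 0.50. Such a distance is small for any gene with a similar change and little spread, and shared control was not tested. CMP2 encodes a catalytic subunit of calcineurin, the calcium-activated phosphatase, GSC2 a subunit of glucan synthase, and PRR1 a protein kinase.

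The calls within the pathway differed in how firmly they stood. LYS9 passed the threshold under each of 16 alternative settings, with changes of 0.45 to 0.50 and adjusted p of 7.49e-07 to 0.00313. LYS21 passed in 15 of the 16, and missed it (adjusted p = 0.0514) when all probe sets of the array entered the fit and its adjustment. LYS4 and LYS1 passed in 9 and 10 of the 16. Under the 3 other scalings between arrays these 4 genes still passed the threshold, and LYS20 was called lower under cyclic loess (adjusted p = 0.0444).

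**Figure D4:**
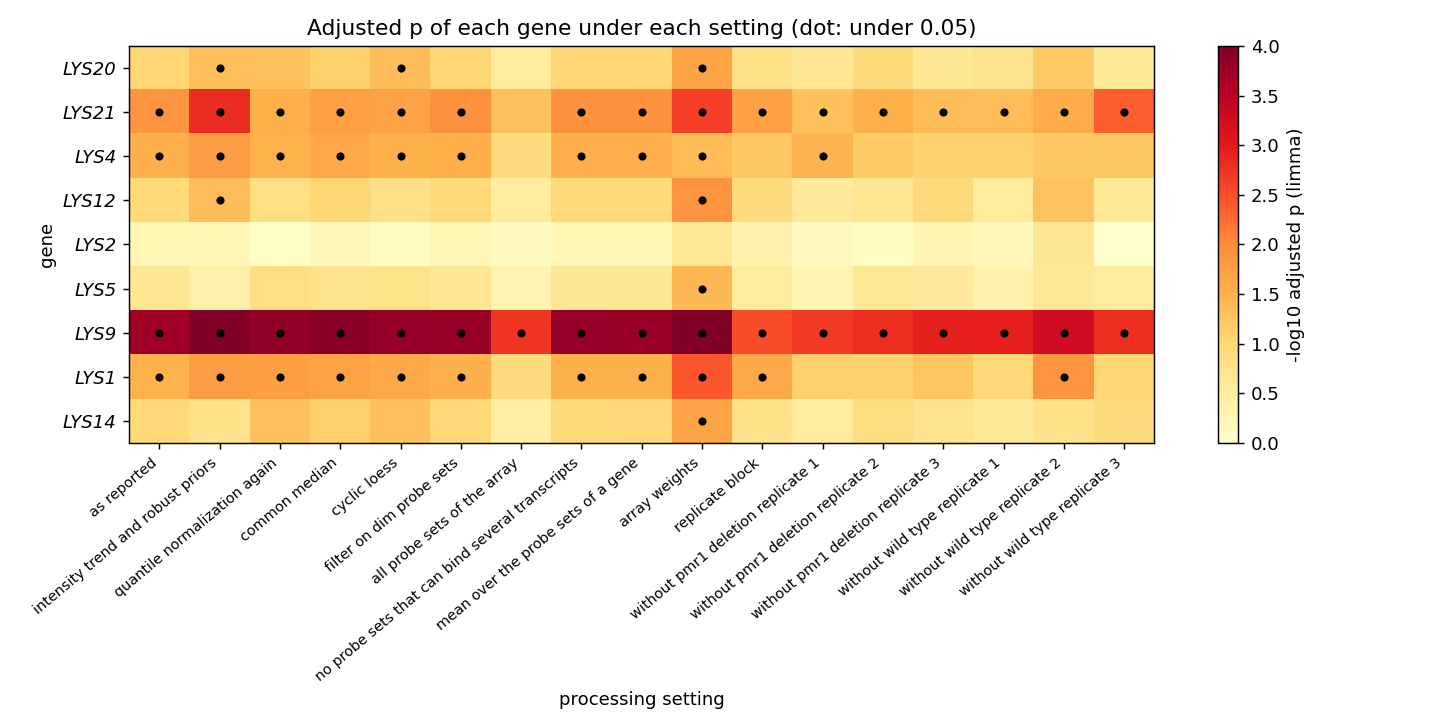
Adjusted p of each lysine gene (rows) as reported and under the 16 alternative settings (columns), coloured by -log10 of the limma adjusted p, capped at 4, with a dot where it was under 0.05. LYS9 has a dot in every column, LYS21 in all but 1, and LYS2 in none.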

How the data were processed

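The authors deposited log2 values for 10928 probe sets on 6 arrays, made with GCOS, RMA and limma per the submitters' processing notes, with no versions given. RMA corrects background, gives arrays a common distribution and compresses small and large folds. Per the labels, 100 ng of total RNA was amplified and biotin-labelled by a 3' kit. The probe annotation names 7245 probe sets, 7244 with 1 symbol and 1 with several, and 3683 have none. Of the named ones, 5498 matched the gene table of assembly R64 by gene ID and were tested, and 1747, taken as those of S. pombe, set the background. The sources used here name no genome build for the array, so no coordinates are printed, and no sequences were used.

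Groups, from the titles, were compared with limma 3.58.1 in R 4.3.3 (lmFit, eBayes, two-sided), with Benjamini-Hochberg adjustment over the 5498 probe sets and a threshold of 0.05. The script was tested on simulated data. Depth does not apply to arrays, and their number limits the precision (median SE of a change 0.0477). No scan or hybridisation batch is given. The members, the 8 other gene lists and the alternatives were chosen with earlier results of these data known. Of the 84 genes in those other lists, 80 were measured. Named were all members, PMR1, up to 4 called genes with the largest change per list, and the 5 nearest to LYS9. STE2, MF(ALPHA)2, GCN4, LYP1 and genes named for their level or for a missed call were added after their values were seen. Python 3.11.15 with matplotlib 3.10.9 drew the figures.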

Additional observations from a re-analysis of the deposited data

How the results depend on the processing

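Of the 4 lysine genes called higher, 1 remained, LYS9, when all 10928 probe sets entered the fit and its adjustment (the cause was not tested), and 2 to 3 were called with each array left out, where fewer samples entered. The count rose to 5, LYS12 added, with an intensity trend and robust priors and with array weights. The share of all probe sets called higher was 19.5% and 26.1% under these 2 settings, against 17.5% as reported. It was 5.01% when all 10928 probe sets entered. Between 1 and 3 genes were called lower, against 0 as reported, under 3 settings: 1 with an intensity trend and robust priors, 1 with cyclic loess (LYS20 in both) and 3 with array weights (LYS20, LYS5 and LYS14), and 0 with each array left out. Here too the cause was not tested. Of all 5498 probe sets, 748 were called lower with the trend and robust priors, 805 with cyclic loess and 1087 with array weights. As reported, 642 were called lower. LYS2 changed sign without wild-type replicate 3, at -0.0027, and stood at up to 0.083 without another array. Over all probe sets, 963 higher and 642 lower became 548 and 325 when the whole array was tested, 1434 and 1087 with array weights, and 599 to 1041 and 373 to 629 without 1 array. The share of higher among called probe sets was 60% as reported and 53.1% to 57.5% under other scalings. Deviations of same-numbered samples had correlations of -0.14, 0.00032 and 0.081 over 5498 probe sets, and differently numbered samples reached -0.14 and 0.15. No pairing by number was seen, though so few arrays cannot exclude one. With the replicate number as a block, 3 lysine genes were higher and 0 lower (LYS4 had an adjusted p of 0.062), beside 805 and 570 of all probe sets. Of 144 values for the members under the alternatives, 122 kept their direction and side of the threshold. Of 543 for the other named genes, 490 did, 53 lost the call and 0 turned. When all 10928 probe sets entered, the calls of ARO8, RTG2, ODC2, MKS1, VBA1, CAN1, RTC2, IDH1, GDH2, LEU9, HIS6 and MF(ALPHA)2 ended. Those of MKS1, CAN1, LEU9, HIS6 and MF(ALPHA)2 also ended with the replicate block. The call of MF(ALPHA)2 ended too with an intensity trend and robust priors and with a common array median. With 3 arrays a group, the smallest change that passes depends on the spread of each gene.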
